A study of Homo sapiens with 10 samples.

Results

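Cystatins are inhibitors of cysteine proteases. The 7 members described here are CST1, CST2, CST3, CST4, CST6, CSTA and CSTB, which were found by their symbols among the 23170 gene entries of each gene table. They were selected on the measured FPKM values of these same tables, in which CST4 and CST1 had some of the largest differences between PC3-Epi and PC3-EMT14, so their ratios are given as a description and no test was made. RNA-seq was run on total RNA from 10 samples, all of them PC3, a prostate cancer cell line of human origin. The line PC3-Epi (2 samples, labelled as the epithelial control) is a luciferase-positive subpopulation selected for its stable epithelial morphology. PC3-EMT14 (3 samples, labelled as mesenchymal) is a stable line obtained once PC3-Epi had been co-cultured with macrophages derived from CD14+ monocytes. The other lines were made from PC3-EMT14 by lentiviral transduction, PC3-EMT14-OVOL1 (3 samples) with the transcription factor OVOL1, and PC3-EMT14-OVOL2 (2 samples) with OVOL2. The labels name no empty vector for the PC3-EMT14 samples, so transduction and selection cannot be told apart from the OVOL factor itself.

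The deposited tables hold 1 pooled FPKM value (fragments scaled to transcript length and to sequencing depth) for each group in each of 4 comparisons. No value of a single sample could be given, so the spread between samples and the depth behind a value are unknown, and no SD, interval or p-value is printed. An order of levels given below is therefore an order of pooled values, and it cannot be said which neighbouring lines differ beyond their spread. The comparisons of PC3-Epi and of both OVOL lines share the PC3-EMT14 samples. Members were counted as past 2-fold where the higher of the FPKM values was at least 1 and their ratio was at least 2, with no pseudocount.

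Cystatins bind reversibly in the active-site cleft of papain-like proteases such as the cathepsins, and some members also inhibit the asparaginyl protease legumain. Type 1 cystatins, also called stefins (CSTA and CSTB), lack a signal peptide and act mainly inside the cell. Type 2 cystatins are secreted. They include cystatin C (CST3), which is made by most cells, cystatin M/E (CST6), which is known from skin and other epithelia, and the salivary cystatins SN (CST1), SA (CST2) and S (CST4). In most family members an inhibitory loop with the residues Gln-Xaa-Val-Xaa-Gly enters the protease cleft.

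The stretch that encodes this loop is shown for the 4 members on chromosome 20, because it is part of what makes them inhibitors and because it shows how alike the salivary members are. The 45 bases run 5′ to 3′ along the coding strand of the GENCODE transcripts on GRCh37, the assembly also called hg19, and the capitals mark the 15 bases of the loop.
CST1: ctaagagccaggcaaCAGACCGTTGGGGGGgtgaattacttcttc
CST2: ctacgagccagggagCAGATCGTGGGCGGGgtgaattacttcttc
CST4: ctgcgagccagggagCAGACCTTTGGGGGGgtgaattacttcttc
CST3: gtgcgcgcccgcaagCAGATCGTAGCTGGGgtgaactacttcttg

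The loop has the valine form of the motif in CST1, CST2 and CST3 but not in CST4. In all 4 the stretch is interrupted by an intron, with its first 18 bases at the end of exon 1 and the rest in exon 2. On the minus strand of chromosome 20 these pieces lie at chr20:23731276-23731293 and chr20:23729740-23729766 for CST1, at chr20:23807070-23807087 and chr20:23805934-23805960 for CST2, at chr20:23669379-23669396 and chr20:23667812-23667838 for CST4, and at chr20:23618257-23618274 and chr20:23615978-23616004 for CST3.

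Over their coding sequences, CST1 and CST4 were 92.7% identical, CST2 and CST4 92.4%, and CST1 and CST2 91.3%. The stefins were 59.0% identical to each other. Of all stretches of 50 bases (the read length) in its transcript, CST1 shared 27.4% exactly with another cystatin transcript, CST4 shared 30.0% and CST2 shared 8.32%, while CST3, CST6, CSTA and CSTB shared 0. Reads from the shared stretches were divided among the salivary genes by a statistical correction, so the split among CST1, CST2 and CST4 is uncertain, whereas the sum of all 3 depends less on it.

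The labels were checked with the transduced factors and with markers of the epithelial and mesenchymal states. OVOL1 had 11.3 FPKM in PC3-EMT14-OVOL1 against 0.0238 FPKM in PC3-EMT14, and OVOL2 had 831 FPKM in PC3-EMT14-OVOL2 against 0.370 FPKM. The paper used different lentiviral constructs for OVOL1 and OVOL2. Between the OVOL lines, the factor, its level and the construct therefore cannot be told apart. CDH1, which encodes E-cad, had 50.6 FPKM in PC3-Epi, 16.2 in PC3-EMT14-OVOL1, 39.2 in PC3-EMT14-OVOL2 and 1.00 in PC3-EMT14 (the value of the PC3-Epi table). VIM, the gene of Vimentin, had 42.5, 183, 76.9 and 271 FPKM in the same order. Of the prostate markers, the keratin KRT8 had 296 FPKM in PC3-Epi and 87.7 FPKM in PC3-EMT14, and KLK3, the gene of prostate-specific antigen, was listed at 0 in all 4 lines.

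In PC3-Epi, 4 of the 7 cystatins were past 2-fold against PC3-EMT14. CST6 was higher, and CST1, CST4 and CST3 were lower. Over all entries of that table with at least 1 FPKM in a group, 15.7% were past 2-fold, but the members were chosen with this contrast in view and nothing is read from their count. In PC3-EMT14-OVOL1, 1 member (CST6) was past 2-fold against PC3-EMT14, where 3.97% of all entries were. In PC3-EMT14-OVOL2 it was again 1 member, CST6, against 7.35% of all entries. Between the OVOL lines, CST4 and CST6 were past 2-fold, both higher in PC3-EMT14-OVOL2, against 3.08% of all entries. Over the members at or above 1 FPKM, the median log2 ratio was -1.07 in PC3-Epi (5 members), -0.16 in PC3-EMT14-OVOL1 (5 members) and 0.44 in PC3-EMT14-OVOL2 (6 members), beside -0.01, -0.00 and -0.04 over all entries at or above 1 FPKM. Over all 7 members it was -1.07, 0.24 and 0.47, so with OVOL1 its sign turned with the members under 1 FPKM (CST2 and CSTA).

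**Figure D1:**
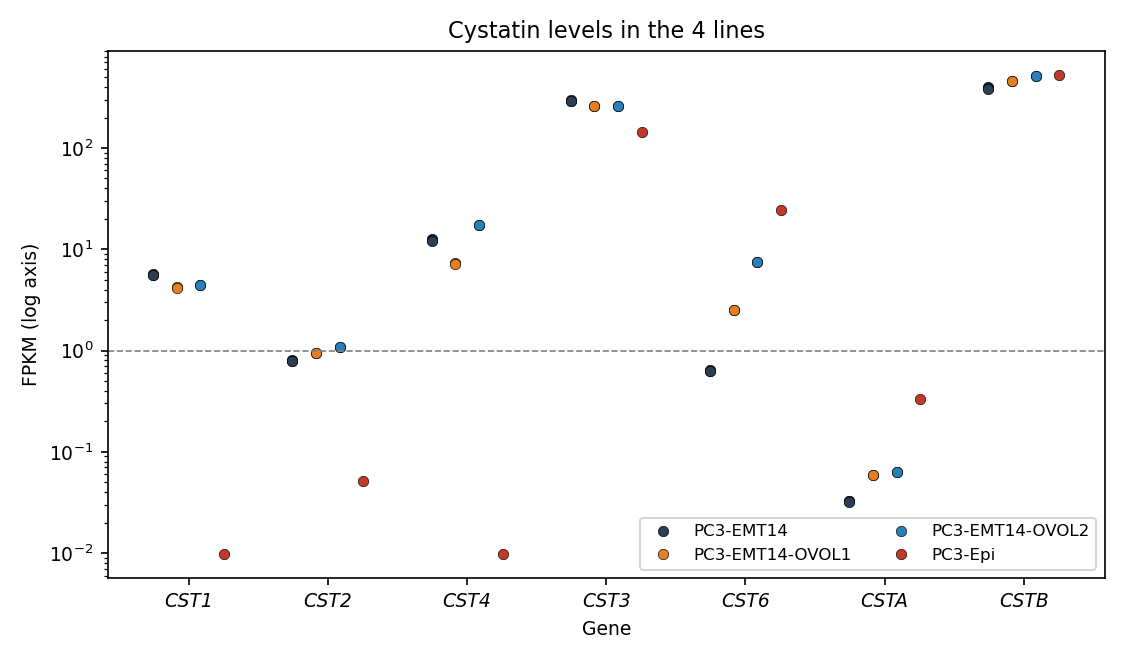
Pooled FPKM (log axis) of the 7 cystatin genes in PC3-EMT14, both OVOL lines and PC3-Epi, with 1 point for each table in which a line occurs and no error bars because the values are pooled. The dashed line marks 1 FPKM. CSTB and CST3 lie above 100 FPKM in all 4 lines, CST1 and CST4 drop to about 0.01 FPKM in PC3-Epi, and CST6 is lowest in PC3-EMT14 and highest in PC3-Epi.

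CST4 encodes cystatin S, a secreted inhibitor best known from saliva and tears. Its level was 12.5 FPKM in PC3-EMT14 but 0.00989 FPKM in PC3-Epi, a log2 ratio of -10.31. In PC3-EMT14-OVOL1 it was 7.25 FPKM against 12.3 FPKM in PC3-EMT14, a log2 ratio of -0.76. In PC3-EMT14-OVOL2 it was 17.4 FPKM against 12.1 FPKM, a log2 ratio of 0.51. The OVOL lines thus lay on opposite sides of PC3-EMT14, neither of them past 2-fold, and both were far above PC3-Epi. In the direct comparison CST4 had 17.3 FPKM in PC3-EMT14-OVOL2 and 7.17 FPKM in PC3-EMT14-OVOL1, which is 2.42-fold higher with OVOL2.

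CST1 encodes cystatin SN, the salivary member nearest to CST4 in sequence. It had 5.76 FPKM in PC3-EMT14 but 0.00981 FPKM in PC3-Epi, a log2 ratio of -9.20. It had 4.22 FPKM in PC3-EMT14-OVOL1 against 5.63 FPKM in PC3-EMT14. With OVOL2 it had 4.42 FPKM against 5.57 FPKM. Both OVOL lines were slightly lower than PC3-EMT14, with log2 ratios of -0.42 and -0.33, and in the direct comparison they stood at 4.42 and 4.17 FPKM. A PC3-Epi value this near 0 makes the size of the ratio imprecise for CST1 and CST4. With 1 FPKM added to both values, the log2 ratios in PC3-Epi were -2.74 for CST1 and -3.75 for CST4.

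CST2, the gene of cystatin SA, was the lowest of the salivary members in the mesenchymal line. It had 0.808 FPKM in PC3-EMT14 against 0.0510 FPKM in PC3-Epi, both under 1 FPKM, with a log2 ratio of -3.99 that became -0.78 with 1 FPKM added. In PC3-EMT14-OVOL1 it had 0.956 FPKM against 0.791 FPKM, and in PC3-EMT14-OVOL2 1.08 FPKM against 0.782 FPKM. CST2 was the salivary member whose level was above that of PC3-EMT14 in both OVOL lines, by log2 ratios of 0.27 and 0.47.

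Summed over CST1, CST2 and CST4, the salivary cystatins had 0.0707 FPKM in PC3-Epi against 19.1 FPKM in PC3-EMT14. The sum was 12.4 FPKM in PC3-EMT14-OVOL1 against 18.7 FPKM, and 22.9 FPKM in PC3-EMT14-OVOL2 against 18.5 FPKM. The ratio of CST4 to CST1 was 2.18 in PC3-EMT14, 1.72 in PC3-EMT14-OVOL1 and 3.92 in PC3-EMT14-OVOL2. The balance of the salivary genes therefore also differed between the OVOL lines, within the uncertainty of how their shared reads were split.

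CST3 encodes cystatin C, an abundant secreted inhibitor of cathepsins. It had 299 FPKM in PC3-EMT14 but 143 FPKM in PC3-Epi, which is 2.09-fold lower and only just past 2-fold. It had 263 FPKM in PC3-EMT14-OVOL1 against 293 FPKM, and 258 FPKM in PC3-EMT14-OVOL2 against 290 FPKM. These log2 ratios of -0.16 and -0.17 put both OVOL lines close to PC3-EMT14, and in the direct comparison the lines had 258 and 260 FPKM. Ranked by level, CST3 was entry 210 of 23170 in PC3-EMT14 and entry 537 in PC3-Epi.

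Macrophages also express CST3, and PC3-EMT14 was isolated from a macrophage co-culture, so 14 macrophage markers were looked at. The co-cultured cells had been passaged repeatedly with trypsin, with macrophages alone grown in parallel as a check that none survived the passages. CD68, which encodes a lysosomal protein that other cell types also make, had 13.2 FPKM in PC3-Epi and between 50.7 and 57.8 FPKM in the other lines. The remaining 13 markers were at or under 0.176 FPKM in all 4 lines, and the complement genes C1QA, C1QB and C1QC were listed at 0 throughout. The summed level of all 14 markers was 13.6 FPKM in PC3-Epi, 52.8 to 54.5 FPKM for PC3-EMT14, 51.8 FPKM in PC3-EMT14-OVOL1 and 58.3 FPKM in PC3-EMT14-OVOL2, nearly all of it CD68. In bulk RNA, fewer cells of a type and less RNA per cell cannot be told apart.

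CST6 encodes cystatin M/E, a secreted inhibitor of legumain and of several cathepsins. It had 24.2 FPKM in PC3-Epi and 0.643 FPKM in PC3-EMT14, which is 37.6-fold higher in PC3-Epi. In PC3-EMT14-OVOL1 it had 2.51 FPKM against 0.629 FPKM, which is 3.997-fold higher. In PC3-EMT14-OVOL2 it had 7.49 FPKM against 0.622 FPKM, a log2 ratio of 3.59. All 3 lines were above PC3-EMT14, with PC3-Epi highest and PC3-EMT14-OVOL1 lowest of them. On the log2 scale, the level in PC3-EMT14-OVOL1 covered 38.0% of the distance from PC3-EMT14 to PC3-Epi and that in PC3-EMT14-OVOL2 67.9%, with lines set side by side from different tables. The direct comparison gave 7.48 FPKM with OVOL2 and 2.49 FPKM with OVOL1, which is 3.01-fold higher with OVOL2. With 1 FPKM added to both values, the log2 ratios against PC3-EMT14 were 3.94 in PC3-Epi, 1.11 with OVOL1 and 2.39 with OVOL2.

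The stefins were not past 2-fold. With lines set side by side from different tables, both had the order of CST6 (PC3-Epi, PC3-EMT14-OVOL2, PC3-EMT14-OVOL1, PC3-EMT14). For CSTB, however, PC3-Epi and PC3-EMT14-OVOL2 cannot be put in order, because their ratios against PC3-EMT14 were nearly the same. In the direct comparison the OVOL lines also lay close, with OVOL2 1.13-fold higher for CSTB and 1.09-fold higher for CSTA. The order of the OVOL lines is therefore not settled for the stefins. CSTB, the gene of the cytosolic and nuclear inhibitor stefin B, had 530 FPKM in PC3-Epi against 398 FPKM in PC3-EMT14, a log2 ratio of 0.41. It had 461 FPKM against 390 FPKM with OVOL1 and 516 FPKM against 386 FPKM with OVOL2, with log2 ratios of 0.24 and 0.42. CSTB had the highest FPKM of the 7 members in each line. It was entry 153 of 23170 by level in PC3-EMT14 and entry 95 in PC3-EMT14-OVOL2.

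CSTA encodes stefin A, which is abundant in stratified epithelia and is built into the cornified envelope of skin. Here it was under 1 FPKM in every line, with 0.332 FPKM in PC3-Epi against 0.0330 FPKM in PC3-EMT14. It had 0.0592 FPKM against 0.0323 FPKM with OVOL1 and 0.0637 FPKM against 0.0320 FPKM with OVOL2. These ratios rest on levels near 0, and with 1 FPKM added the log2 ratio in PC3-Epi was 0.37. Of 12 cornified envelope genes, 2 reached 1 FPKM and 0 were past 2-fold in any comparison. They were PPL (periplakin), with 11.1 FPKM in PC3-Epi against 5.78 FPKM in PC3-EMT14, and EVPL (envoplakin), with 9.10 against 6.81 FPKM.

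**Figure D2:**
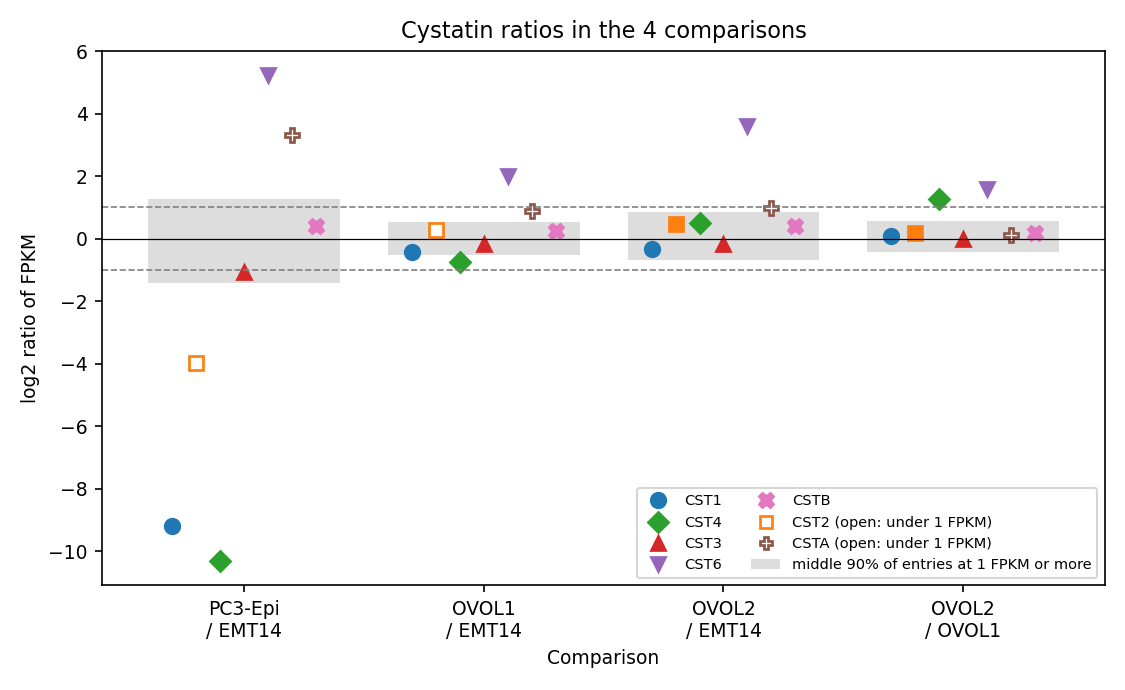
Log2 ratios of FPKM for the 7 members in the 4 comparisons, from PC3-Epi against PC3-EMT14 on the left to PC3-EMT14-OVOL2 against PC3-EMT14-OVOL1 on the right. Open symbols mark members under 1 FPKM in both groups, grey bars span the 5th to the 95th percentile of all entries at or above 1 FPKM, and dashed lines mark 2-fold. CST6 lies above the grey bar in each comparison, CST1 and CST4 lie far below it in PC3-Epi, and CST4 lies below it with OVOL1 and above it between the OVOL lines.

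The middle 90% of all log2 ratios ran from -1.41 to 1.25 in PC3-Epi, from -0.51 to 0.53 with OVOL1, from -0.68 to 0.86 with OVOL2 and from -0.42 to 0.55 between the OVOL lines. CST6 was the 117th highest ratio of 12441 entries in PC3-Epi, the 149th of 12197 with OVOL1 and the 108th of 12307 with OVOL2. CST4 was the 57th lowest and CST1 the 60th lowest in PC3-Epi. Between the OVOL lines, CST6 was the 87th and CST4 the 154th highest of 12188 entries.

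Together the 7 members had 697 FPKM in PC3-Epi and 717 FPKM in PC3-EMT14. The sums were much alike because CSTB was higher in PC3-Epi (530 against 398 FPKM) while CST3 was lower (143 against 299 FPKM). CSTB made up 76.0% of the sum in PC3-Epi and 55.5% in PC3-EMT14, and CST3 made up 20.5% and 41.7%. The sum was 739 FPKM in PC3-EMT14-OVOL1, with 62.4% from CSTB, and 804 FPKM in PC3-EMT14-OVOL2, with 64.2% from CSTB. The other 5 members together held between 2.03% and 3.78% in the lines.

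CST3, CST4, CST1 and CST2 lie next to each other on the minus strand of chromosome 20, within 193 kb. On hg19 the entries are CST3 (XLOC_013209, chr20:23614294-23618574), CST4 (XLOC_013210, chr20:23666277-23669662), CST1 (XLOC_013211, chr20:23728190-23731574) and CST2 (XLOC_013212, chr20:23804404-23807312). CST6 (XLOC_003466, chr11:65779462-65780976) and CSTA (XLOC_014519, chr3:122044011-122060815) are on plus strands, and CSTB (XLOC_013641, chr21:45193831-45196259) is on a minus strand. No exon of another annotated gene overlaps any of the 7 members, and each has 1 isoform entry, so no shift between isoforms could be seen.

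Within 250 kb of the chromosome 20 members there were 9 other entries, and 1 of them reached 1 FPKM. It was NAPB, a neighbour named after its values were seen, with 3.37 FPKM in PC3-Epi against 4.77 FPKM in PC3-EMT14. The remaining 8, of which 7 are further cystatin genes or pseudogenes, stayed at or under 0.0371 FPKM in all lines. The PC3-Epi difference of CST1 and CST4 was thus measured among neighbours that were near 0 in all lines, apart from CST3, CST2 and NAPB. Across the genome, 11 further cystatin superfamily genes were found of 12 listed, and 0 of them reached 1 FPKM, the highest value being 0.153 FPKM for AHSG (fetuin A).

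**Figure D3:**
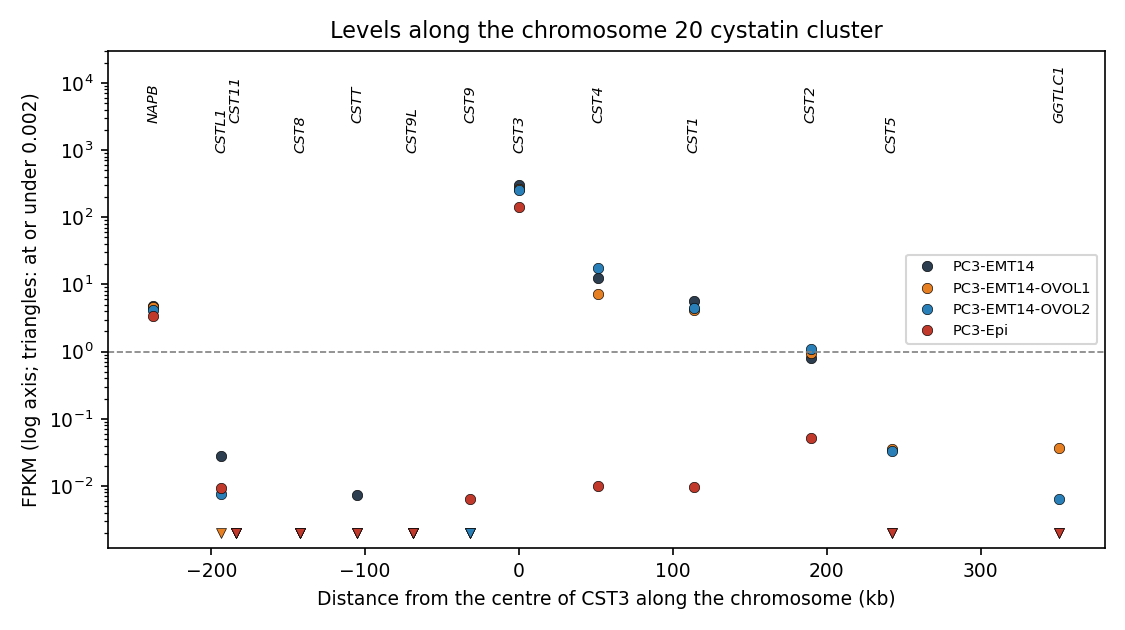
FPKM (log axis) of the entries in and around the chromosome 20 cystatin cluster against their distance from the centre of CST3 in kb, with 1 point for each of the 4 lines and triangles for values at or under 0.002 FPKM. CST3 and NAPB are above 1 FPKM in all 4 lines, CST4 and CST1 are above it in all lines except PC3-Epi, and the other entries apart from CST2 are near 0.

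Around CST6, 21 entries lay within 250 kb, 17 of them at or above 1 FPKM in the PC3-Epi comparison. Of these, OVOL1 was higher and EFEMP2 lower past 2-fold in PC3-Epi, and the median log2 ratio was -0.03. OVOL1, the transduced factor of one line, thus lies near CST6 on chromosome 11, 215 kb away. In that line, 1 of 17 neighbours was past 2-fold against PC3-EMT14, OVOL1 itself, and the median log2 ratio was 0.07. The OVOL1 level there cannot be split between the transduced copy and the chromosome 11 gene. With OVOL2, 0 of the neighbours were past 2-fold and their median log2 ratio was 0.10, while CST6 itself had 3.59. EFEMP2, named after its values were seen, had 0.663 FPKM in PC3-Epi against 2.62 FPKM in PC3-EMT14. Around CSTA 9 entries and around CSTB 7 entries were found, of which 6 and 6 reached 1 FPKM and 0 were past 2-fold.

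The proteases that cystatins inhibit were looked at as a list of 12 genes, the cysteine cathepsins and legumain. In PC3-Epi, of 9 at or above 1 FPKM, 2 were higher and 2 lower past 2-fold against PC3-EMT14, beside 15.7% of all entries. With OVOL1, 0 of 9 were past 2-fold, beside 3.97% of all entries. With OVOL2, 2 of 10 were higher and 0 lower, beside 7.35% of all entries. Nothing is read from these small counts. The summed level of the list was 466 FPKM in PC3-Epi against 378 FPKM, 372 against 370 FPKM with OVOL1 and 376 against 366 FPKM with OVOL2. The median log2 ratios of those at or above 1 FPKM were -0.15, 0.06 and 0.13, close to the medians over all entries.

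CTSC, the gene of the dipeptidyl peptidase cathepsin C, had 199 FPKM in PC3-Epi against 69.6 FPKM in PC3-EMT14. CTSL2, which encodes the elastolytic cathepsin V, had 25.0 FPKM in PC3-Epi against 8.01 FPKM, 13.3 against 7.85 FPKM with OVOL1 and 17.0 against 7.76 FPKM with OVOL2. CTSL2 shared with CST6 the order of lines from PC3-Epi down to PC3-EMT14. CTSH, which was not past 2-fold, and the epithelial marker CDH1 had this order as well. CTSF, a lysosomal cathepsin, had 3.19 FPKM in PC3-Epi against 9.16 FPKM, and CTSO had 1.43 against 3.35 FPKM. CTSS, known from antigen-presenting cells, had 1.76 FPKM with OVOL2 against 0.372 FPKM, and 0.181 FPKM in PC3-Epi against 0.384 FPKM.

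Among the most abundant of the list, CTSZ had 115 FPKM in PC3-Epi against 154 FPKM in PC3-EMT14. CTSB, the gene of cathepsin B, a main lysosomal protease, had 28.5 against 52.8 FPKM, a log2 ratio of -0.89. Legumain (LGMN), the target that CST6 shares with CST3, had 24.3 FPKM in PC3-Epi against 23.0 FPKM. The inhibitor CST6 thus differed 37.6-fold between these lines while LGMN stood at nearly the same level.

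**Figure D4:**
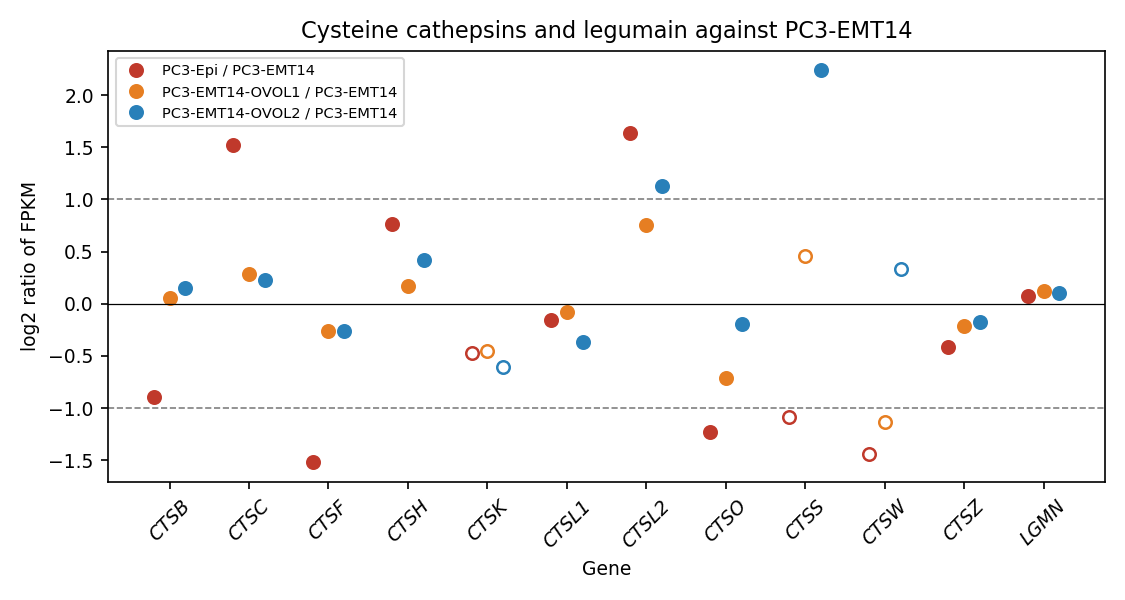
Log2 ratios of FPKM against PC3-EMT14 for 11 cysteine cathepsins and legumain (LGMN) in PC3-Epi and both OVOL lines, with open circles where both values are under 1 FPKM and dashed lines at 2-fold. Of the filled circles, CTSC and CTSL2 lie above the upper line and CTSF and CTSO below the lower line in PC3-Epi. With OVOL2, the filled circles of CTSL2 and CTSS lie above the upper line. Of the open circles, CTSS and CTSW lie below the lower line in PC3-Epi, and CTSW also with OVOL1.

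For each member past 2-fold against PC3-EMT14, the entries with the most similar pattern were found as those with the smallest Euclidean distance over the 3 log2 ratios against PC3-EMT14, among 12452 entries. For CST6 they were RAB19 (distance 0.611), CBLC (0.613) and EHF (0.706), of which EHF encodes an epithelial ETS transcription factor. For CST4 they were CST1 (1.44), PDE3A (1.53) and JAKMIP1 (1.55), and for CST1 they were JAKMIP1 (0.781), ZFPM2 (0.943) and PDE3A (1.35). For CST3 they were C1orf113 (0.0365), NBPF10 (0.0370) and EFNB1 (0.0535). The distances were far smaller for CST3, whose modest ratios many entries had, than for CST1 and CST4, whose PC3-Epi values near 0 set most of their pattern.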

How the data were processed

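Total RNA of the 4 PC3 lines was sequenced with paired-end 50-base reads. Alignment by the authors used TopHat 2.0.2 with the hg19 transcriptome of UCSC. They then ran Cuffdiff 2.0.2 for each pair of groups, normalizing to the upper quartile, with scaling to compatible hits, and corrections for bias and for reads that map to several places. They deposited FPKM values, 1 pooled value per group, in 8 tables (genes and isoforms of 4 comparisons). Strand and depth per sample are not given in the sources used here. The tables also hold the authors' fold changes, test statistics, p-values and q-values, and these columns were not used. The number of unused columns with values per sample was 0.

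Groups followed the sample labels. Ratios were recomputed from both FPKM values of a table without a pseudocount, in Python 3.11.15 with numpy 2.4.6 and pandas 2.3.3. Sequence comparisons used Biopython 1.88 and plots matplotlib 3.10.9. Entries counted as past 2-fold needed at least 1 FPKM in a group. Levels of a line in different tables differed by a nearly constant factor of at most 1.03 (median). Entries on alternate haplotypes were left out of the lists.

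The members and the lists were chosen with earlier results of these data known. Named were all 7 members, list genes past 2-fold or among the 3 most abundant of their list, 6 genes that check the labels, and the 3 nearest patterns of each member past 2-fold against PC3-EMT14. KLK3, the C1Q genes, LGMN, CTSH, AHSG, and the neighbours NAPB and EFEMP2 were named after their values were seen. Alternatives tried were other fold thresholds and floors, a pseudocount, centring on the median, isoform sums, entries with test status OK only, and values from different tables. Some items of the lists and sequences are not reported here.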

Additional observations from a re-analysis of the deposited data

How the results depend on the processing

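The count of members past 2-fold in PC3-Epi was 4, and it was 3 at 4-fold and 6 with no floor, which added CST2 and CSTA. With OVOL1 the count of 1 became 2 at 1.5-fold, where CST4 was added as lower, and 0 at 4-fold and with a floor of 5 FPKM, where CST6 was just under 4-fold and at 2.51 FPKM. Between the OVOL lines the count of 2 became 0 at 4-fold. With a pseudocount of 1 FPKM, 9 of 28 log2 ratios of members moved by 1.5-fold or more, and a pseudocount cannot change a sign. Isoform sums could not differ from the gene values, because each member has 1 isoform entry. The largest centring shift was -0.041 log2, and values from different tables moved a ratio by at most 0.047 log2. Neither could therefore move any of the 28 by 1.5-fold. No replicate could be left out, because each group has 1 pooled value. No paired analysis was possible because the tables hold no value per sample. Depth is unknown, so how many reads lie behind the values near 0 (CST1 and CST4 in PC3-Epi, CSTA in all lines) cannot be given.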
